A study of Mus musculus with 6 samples.

Results

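NF-κB is a family of transcription factors built as dimers from 5 subunits, and IκB proteins hold the dimers in the cytoplasm or steer them in the nucleus. Inflammatory signals activate the IκB kinase, which marks the inhibitors for destruction and frees the dimers to switch on chemokine, cytokine and survival genes. Several genes of the system, among them those of IκBα, IκBζ and the precursor subunits, are textbook targets of NF-κB itself, so that the pathway writes its own brakes. In kidney tubule cells the pathway is known for driving the release of chemokines after injury.

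The members described here are 10 genes, picked by gene name from the 29595 genes of the deposited table, and all 10 were matched once. They are the subunits Nfkb1, Nfkb2, Rela, Relb and Rel, the cytoplasmic inhibitors Nfkbia, Nfkbib and Nfkbie, and the nuclear IκB co-regulators Nfkbiz and Bcl3. Their transcripts were measured by bulk RNA sequencing in TKPTS cells, a line of mouse renal proximal tubule cells. The Hnf3a group (3 libraries) had been transfected with pcDNA3.1-Hnf3a-Flag, a plasmid for Flag-tagged HNF3α, the forkhead factor encoded by Foxa1. The pcDNA group (3 libraries, genotype WT) had received pcDNA3.1-Flag, and both groups were harvested 24 hours after transfection. No cytokine treatment is given in the labels. The labels do not say whether the libraries of a group came from separate cultures, so p-values measure the spread between these libraries, which may be technical.

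The libraries held 60473818 to 71154667 estimated counts, and 17824 genes were kept for testing after genes with low counts were removed. All 10 members were kept, with 1228 to 22200 counts in a library. Where values of a group are listed below, they stand in the order of replicates 1, 2 and 3. Foxa1 stood at 334.2, 295.5 and 284.2 FPKM (fragments per kilobase of transcript, scaled to library size) with the Hnf3a plasmid and at 9.49, 9.54 and 9.96 FPKM with the empty one, so the libraries matched their labels. Transcripts of the plasmid and of the chromosomal gene were not separated. Of 12 listed proximal tubule markers 8 were matched. The kidney lineage factor Pax8 had 11256 to 13855 counts, while the mature tubule genes Lrp2 and Cubn had 17 to 58 counts and Slc5a2 at most 3. Fibroblast genes, 7 listed and 7 matched, summed to 1.53, 64.6 and 81.5 CPM (library counts scaled to a common total) in the Hnf3a libraries against 0.413 to 0.942 CPM in the pcDNA libraries, and 3, 7 and 7 of them exceeded 12 counts against 0, 2 and 1. Blood cell genes, 11 matched of 12, summed to 27.9 to 39.6 CPM against 25.7 to 29.4 CPM, and C1qa was at 0 in Hnf3a replicate 1 and in each pcDNA library. Counts of members are therefore also given with Hnf3a replicate 1, the lowest of its group in both lists, as the lone Hnf3a library.

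Promoter sequences were looked at because NF-κB binds short κB sites near several of its own genes. RefSeq promoters (GRCm38.p6, 250 bases before to 50 after a start site) were matched for 7 members, with 9 windows in all since Nfkb2 has 3 starts. The κB consensus was searched on both strands, with overlapping matches merged. It lay in windows of Nfkb2, Rel, Nfkbia, Nfkbie and Bcl3 and was not found in those of Rela and Nfkbib, against 8.46% of all 32851 promoter windows of this length. The FOXA core TGTTTAC, searched in the same way, was in 0 of the 9 windows and in 3.65% of all windows. With so few windows and that share, finding none does not show that the core is rarer there. A match is a run of letters and does not show binding. The stretches below read 5′ to 3′ along the gene and carry κB matches in capitals. The Nfkbia, Nfkbie and Nfkb2 stretches belong to members that fell, and the Rel and Rela stretches to members that did not pass the test. Each 150-base stretch ends before the gene's annotated exons.
Nfkbia, chr12:55492648-55492797, minus strand: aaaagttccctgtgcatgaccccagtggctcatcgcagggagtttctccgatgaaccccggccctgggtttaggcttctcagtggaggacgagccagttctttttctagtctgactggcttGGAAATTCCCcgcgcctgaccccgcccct
Nfkbie, chr17:45555550-45555699, plus strand: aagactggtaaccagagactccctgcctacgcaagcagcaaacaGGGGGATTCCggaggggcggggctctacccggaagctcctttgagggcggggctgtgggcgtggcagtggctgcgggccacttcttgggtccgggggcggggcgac
Nfkb2, chr19:46304689-46304718, plus strand: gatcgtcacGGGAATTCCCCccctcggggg
Rel, chr11:23770971-23771120, minus strand: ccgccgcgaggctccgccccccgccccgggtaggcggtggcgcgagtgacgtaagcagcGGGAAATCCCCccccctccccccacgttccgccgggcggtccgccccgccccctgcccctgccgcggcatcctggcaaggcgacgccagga
Rela, chr19:5637333-5637482, plus strand: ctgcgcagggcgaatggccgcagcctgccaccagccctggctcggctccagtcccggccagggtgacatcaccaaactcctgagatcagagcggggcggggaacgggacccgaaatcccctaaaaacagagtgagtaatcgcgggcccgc

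In Nfkbia the match lay 29 to 20 bases before the start site, and in Nfkbie 106 to 97 bases before it. Rel, whose transcript did not pass the test, held a match 92 to 82 bases before its start. In Nfkb2 the match in capitals lay 39 to 29 bases before the first of its 3 RefSeq starts. Another match lay 11 to 2 bases before that start. The Nfkb2 stretch lies inside the annotated span of the gene, which begins at base 46304320. Of the 3 members that fell and had a window, 3 held a match, as did 2 of the 4 members with a window that did not pass the test. Nfkb1 and Nfkbiz, which fell, and Relb had no window, so these counts cover only part of the members. Nfkb2 had 3 windows to match in, where each other member had a single one.

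The main comparison asked whether the transcripts of these 10 genes differed between Hnf3a and pcDNA cells. Of the 10 members, 5 were lower in the Hnf3a group at an adjusted p under 0.05 (edgeR quasi-likelihood test, Benjamini-Hochberg over all 17824 genes), and 0 were higher. Over all genes tested, 3.17% were called, 2.13% as lower and 1.04% as higher. The 5 were Nfkbiz, Nfkbia, Nfkb1, Nfkbie and Nfkb2, and their levels fell by 9.09% to 28.8%. They spanned all 3 roles, with 2 of 5 subunits, 2 of 3 cytoplasmic inhibitors and 1 of 2 nuclear co-regulators. Of the members, 9 had a negative log2 fold change, and the median was -0.16, while the median over all genes was 0.00085. In TMM-scaled CPM the groups did not overlap for 6 members, all lower in the Hnf3a group, where 9.81% of all genes were lower and 9.13% higher without overlap.

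**Figure D1:**
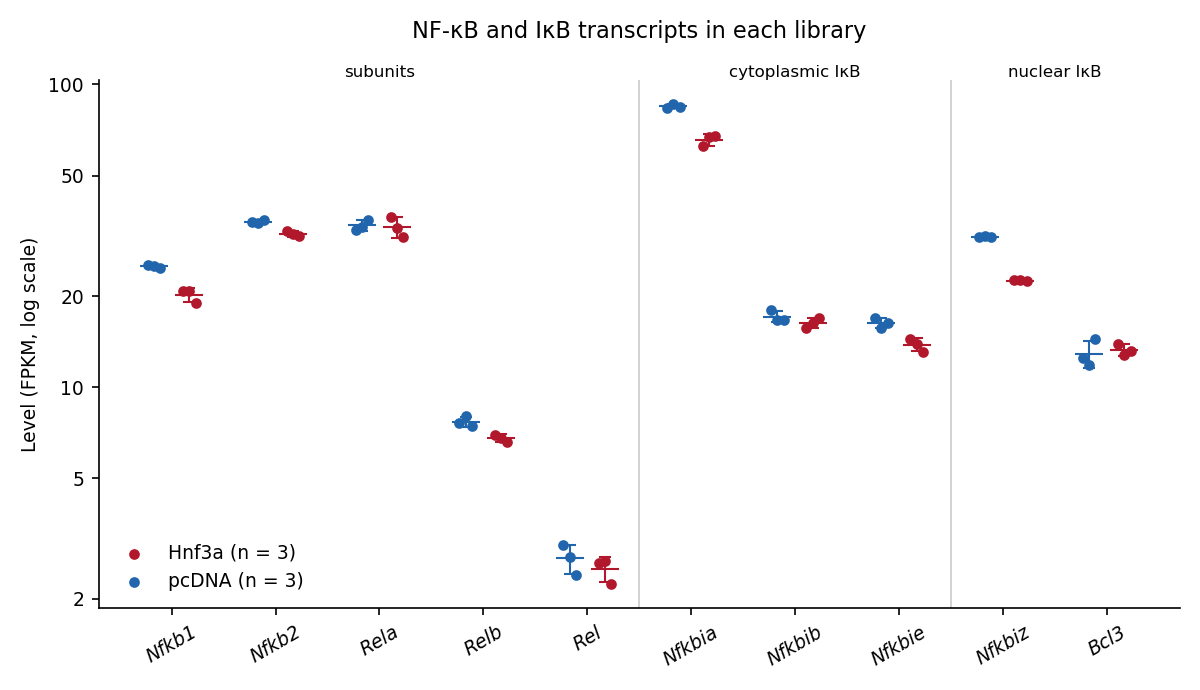
Level of each member in FPKM on a log axis, with a point for each library (3 Hnf3a, red; 3 pcDNA, blue), the mean as a horizontal tick and the SD as error bars. The Hnf3a points lie wholly below the pcDNA points for Nfkb1, Nfkb2, Relb, Nfkbia, Nfkbie and Nfkbiz, and the groups overlap for Rela, Rel, Nfkbib and Bcl3.

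Among the subunits, Nfkb1 (ENSMUSG00000028163, chromosome 3, 135584655 to 135691546, minus strand, 25 exons in its longest coding transcript) encodes p105, the precursor of p50. Its level was 20.8, 20.8 and 19.0 FPKM in the Hnf3a libraries against 25.3, 25.1 and 24.7 FPKM in the pcDNA libraries. Every Hnf3a library was below every pcDNA library. The group levels were 20.2 ± 1.01 and 25.04 ± 0.318 FPKM (SD, n = 3 each), a fall of 19.9% (log2 fold change -0.32, standard error 0.037, edgeR adjusted p 0.000183). In bulk RNA, less transcript per cell and fewer cells that carry it cannot be told apart.

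Nfkb2 (ENSMUSG00000025225, chromosome 19, 46304320 to 46312385, plus strand, 22 exons) encodes p100, the precursor of p52 and itself an inhibitor of RelB dimers. It stood at 32.9, 32.0 and 31.5 FPKM in the Hnf3a libraries and at 35.1, 34.7 and 35.5 FPKM in the pcDNA libraries. The groups were close but did not overlap. The fall was 9.09% (log2 fold change -0.14, standard error 0.032, edgeR adjusted p 0.0342), and this was the least firm of the 5 calls. The adjusted p was 0.0673 with the replicate number as a block. It was past the threshold without Hnf3a replicate 1 (adjusted p 0.0163) and lost it without any other single library, at 0.187 without Hnf3a replicate 2, 0.0888 without Hnf3a replicate 3, and 0.154, 0.129 and 0.143 without pcDNA replicates 1, 2 and 3. Exons of Psd lie opposite to Nfkb2, and the strand setting of the counting step is not given in the sources used here. Psd had 271 to 412 counts where Nfkb2 had 10625 to 11876.

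Rela (ENSMUSG00000024927, chromosome 19, 5637483 to 5648130, plus strand, 11 exons) encodes p65, the subunit that with p50 forms the main activating dimer. It was at 36.6, 33.4 and 31.3 FPKM in the Hnf3a libraries and at 33.1, 33.9 and 35.7 FPKM in the pcDNA libraries. The Hnf3a values enclosed the pcDNA values on both sides. The log2 fold change was -0.027 with a 95% interval from -0.14 to 0.086 (edgeR adjusted p 0.903). The sign turned with the libraries used. It was 0.026 without Hnf3a replicate 3, 0.0035 without pcDNA replicate 3 and 0.096 with Hnf3a replicate 1 alone.

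Relb (ENSMUSG00000002983, chromosome 7, 19606217 to 19629438, minus strand, 12 exons) encodes the partner of p52 in the non-canonical pathway. It was at 6.97, 6.81 and 6.59 FPKM in the Hnf3a libraries and at 7.62, 8.01 and 7.44 FPKM in the pcDNA libraries, without overlap. The log2 fold change was -0.19 with a 95% interval from -0.30 to -0.072, and at an edgeR adjusted p of 0.0875 the gene did not pass the threshold. Rel (ENSMUSG00000020275, chromosome 11, 23736847 to 23770970, minus strand, 10 exons) encodes c-Rel, a subunit best known from lymphocytes. It was the lowest member at 2.62, 2.66 and 2.24 FPKM against 3.00, 2.75 and 2.40 FPKM, with overlapping groups. Its log2 fold change was -0.12 with a 95% interval from -0.32 to 0.070 (edgeR adjusted p 0.631).

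Among the cytoplasmic inhibitors, Nfkbia (ENSMUSG00000021025, chromosome 12, 55489410 to 55492647, minus strand, 6 exons) encodes IκBα, the fast inhibitor that is degraded on stimulation and made again by NF-κB. Its level was 62.4, 67.1 and 67.5 FPKM in the Hnf3a libraries against 83.8, 86.2 and 84.1 FPKM in the pcDNA libraries. The gap between the groups was wider than the range within either. The mean was 65.6 ± 2.81 against 84.7 ± 1.34 FPKM (SD, n = 3 each), and the fall was 23.0% (log2 fold change -0.38, standard error 0.037, edgeR adjusted p 4.15e-05).

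Nfkbie (ENSMUSG00000023947, chromosome 17, 45555703 to 45563169, plus strand, 6 exons) encodes IκBε, a slower inhibitor that also responds to NF-κB. It stood at 14.5, 13.9 and 13.1 FPKM in the Hnf3a libraries and at 16.9, 15.6 and 16.3 FPKM in the pcDNA libraries, again without overlap. The fall was 15.6% (log2 fold change -0.24, standard error 0.051, edgeR adjusted p 0.0168). The call was lost when Hnf3a replicate 2 or 3 was left out (adjusted p 0.0991 and 0.0606), and likewise for pcDNA replicate 1 or 3 (adjusted p 0.12 and 0.0773).

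Nfkbib (ENSMUSG00000030595, chromosome 7, 28758251 to 28766640, minus strand, 7 exons) encodes IκBβ, an inhibitor that is not strongly remade after stimulation. It was at 15.7, 16.3 and 16.97 FPKM in the Hnf3a libraries and at 17.9, 16.7 and 16.7 FPKM in the pcDNA libraries. The groups overlapped, with a log2 fold change of -0.076, a 95% interval from -0.19 to 0.035 and an edgeR adjusted p of 0.599. Exons of Sirt2 lie opposite to Nfkbib and had 2335 to 2692 counts, close to the 2474 to 2798 counts of Nfkbib, so the share of reads each received is uncertain.

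Of the nuclear co-regulators, Nfkbiz (ENSMUSG00000035356, chromosome 16, 55811375 to 55838899, minus strand, 14 exons) encodes IκBζ, an inducible partner of p50 that is needed for a late set of inflammatory genes. It had the largest fall among the 10 members. Its level was 22.6, 22.6 and 22.4 FPKM in the Hnf3a libraries against 31.4, 31.5 and 31.3 FPKM in the pcDNA libraries. The spread within each group was small beside the gap, with 22.5 ± 0.101 against 31.4 ± 0.104 FPKM (SD, n = 3 each). The fall was 28.8% (log2 fold change -0.49, standard error 0.031, edgeR adjusted p 7.64e-07), which ranked 13 by p among the 17824 genes. No annotated gene overlaps Nfkbiz.

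Bcl3 (ENSMUSG00000053175, chromosome 7, 19808462 to 19822770, minus strand, 9 exons) encodes a nuclear IκB that binds p50 and p52 dimers and can give them activating power. It was the 1 member with a positive log2 fold change, 0.031, with a 95% interval from -0.12 to 0.18 and an edgeR adjusted p of 0.918. Its level was 13.9, 12.8 and 13.2 FPKM in the Hnf3a libraries against 12.5, 11.9 and 14.4 FPKM in the pcDNA libraries, with overlapping groups. The sign turned to -0.0084 without Hnf3a replicate 1 and to -0.026 without pcDNA replicate 2.

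**Figure D2:**
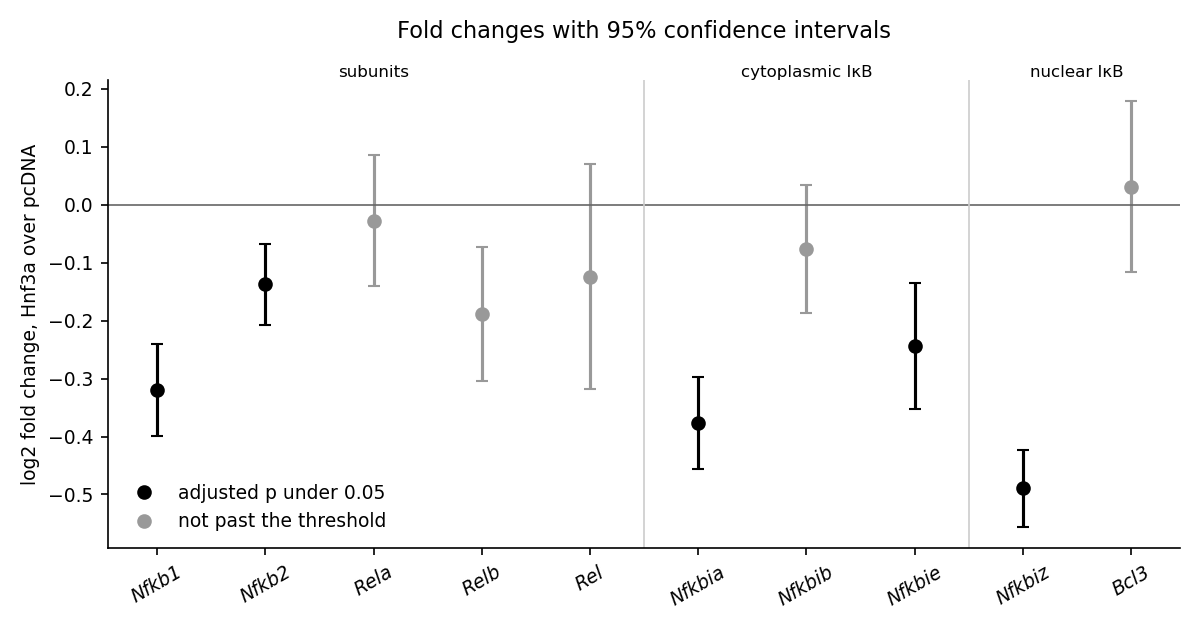
Log2 fold change of each member (Hnf3a over pcDNA, 3 libraries each) with its 95% confidence interval from the edgeR fit, black where the adjusted p was under 0.05 and grey elsewhere. Nfkbiz, Nfkbia and Nfkb1 lie farthest below 0, at -0.49, -0.38 and -0.32, and the intervals of Rela, Rel, Nfkbib and Bcl3 cross 0.

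Per length of transcript, Nfkbia was the most abundant member in both groups, and Relb and Rel were the least abundant. In the pcDNA group the order of mean FPKM was Nfkbia, Nfkb2, Rela, Nfkbiz, Nfkb1, Nfkbib, Nfkbie, Bcl3, Relb and Rel. The ranges of the libraries overlapped between Nfkb2 and Rela and between Nfkbib and Nfkbie, and other neighbours lay apart. In the Hnf3a group Rela (33.8 FPKM) stood before Nfkb2 (32.1 FPKM), again with overlapping ranges, and the rest of the order was the same. There Nfkbie and Bcl3 also overlapped, at 13.8 and 13.3 FPKM. Among all tested genes, Nfkbia lay at percentile 97.2 of FPKM in the pcDNA group and Rel at percentile 46.4.

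Ratios of FPKM within a library remove the library's scale and show how the members stood to each other. Nfkbia over Rela was 1.71, 2.01 and 2.15 in the Hnf3a libraries against 2.53, 2.55 and 2.35 in the pcDNA libraries. The ratio was thus lower in each Hnf3a library, with means of 1.96 ± 0.228 and 2.48 ± 0.106 (SD, n = 3 each). The 3 cytoplasmic inhibitors together stood at 0.927, 1.02 and 1.08 times the summed level of the 5 subunits in the Hnf3a libraries. In the pcDNA libraries they stood at 1.14, 1.14 and 1.11 times, and the groups also lay apart. Nfkbia made up 67.4% to 69.2% of the inhibitor sum in the Hnf3a libraries and 70.6% to 72.7% in the pcDNA libraries. It thus weighed most in that sum. Nfkb1 over Nfkbia overlapped between the groups, at 0.282 to 0.333 against 0.291 to 0.302. Nfkb1 over Rela was 0.568 to 0.621 against 0.691 to 0.764. Nfkb2 over Rela overlapped between the groups, at 0.899 to 1.01 against 0.995 to 1.06. The ratio of the nuclear co-regulators, Nfkbiz over Bcl3, was 1.62 to 1.77 in the Hnf3a libraries and 2.18 to 2.66 in the pcDNA libraries. Nfkbiz over Nfkbia was 0.332 to 0.362 against 0.366 to 0.374, close but apart. Single ratios were not tested and are given as a description. The smallest p that exact permutation of 3 libraries per group allows is 0.1.

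**Figure D3:**
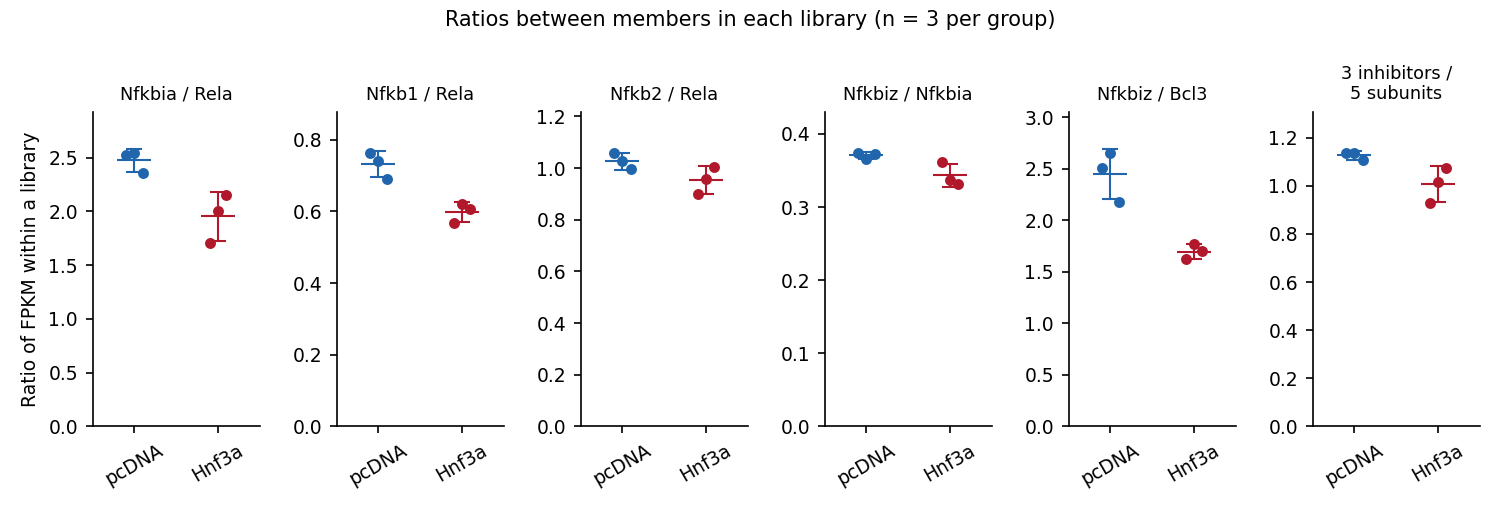
Ratios of FPKM between members within each library, with a point per library (pcDNA, blue; Hnf3a, red; n = 3 each), the mean as a tick, the SD as error bars and each axis starting at 0. Nfkbia over Rela falls from a mean of 2.48 in the pcDNA group to 1.96 in the Hnf3a group, and Nfkbiz over Bcl3 from 2.45 to 1.70, while Nfkb2 over Rela overlaps between the groups.

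The 3 genes with a pattern over the 6 libraries most like that of Nfkbiz were Trappc13, Nadk and Slc31a2, with Pearson's r of log2 CPM between 0.998 and 0.999. The 6 points fall into the 2 groups, so r mainly describes the group difference. Their log2 fold changes were -0.18, -0.36 and -0.57.

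The other genes of the pathway were taken from lists of signalling components, 55 genes that were all tested. Of these, 6 were lower in the Hnf3a group (edgeR adjusted p under 0.05) and 0 were higher, or 10.9%. Over all genes tested, 3.17% were called and 2.13% were called lower, shares that serve for each list below as well. The median log2 fold change of the 55 genes was -0.029. The IκB kinase itself did not pass the test. Chuk and Ikbkb, its catalytic subunits, had log2 fold changes of -0.0045 (95% interval -0.095 to 0.086) and -0.099 (-0.18 to -0.015), with edgeR adjusted p of 0.985 and 0.26. Ikbkg, its scaffold NEMO, had 0.055 (95% interval -0.048 to 0.16), and Map3k14, the NIK kinase of the non-canonical pathway, had 0.045 (-0.11 to 0.20). Exons of G6pdx lie across Ikbkg, and those of another annotated gene across Map3k14, so both counts are uncertain. Of the 11 kinases listed, 1 was called, Ikbke, which encodes the IKK-related kinase IKKε and is itself inducible. Ikbke was at 6.21, 6.59 and 6.42 FPKM in the Hnf3a libraries and at 8.21, 8.23 and 7.99 FPKM in the pcDNA libraries, a fall of 21.8% (edgeR adjusted p 9.34e-05), and exons of other annotated genes lie across it.

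Of 15 adaptors and ubiquitin ligases 1 was called, Birc3, which encodes the ligase cIAP2. Birc3 fell from 6.74 ± 0.162 to 5.36 ± 0.156 FPKM (SD, n = 3 each; log2 fold change -0.34, edgeR adjusted p 0.00153). Of the 7 genes for IκB ubiquitination and p105 processing, edgeR called 0, with 0 at an unadjusted p under 0.05. Of the 12 other IκB-like genes and nuclear partners it also called 0, with 2 at an unadjusted p under 0.05, and DESeq2 and limma called 0 in either list. Of the 10 deubiquitinases and other brakes, 4 were lower. They were Zc3h12a (the ribonuclease Regnase-1, log2 fold change -0.86), Tnip3 (-0.64), Tnfaip3 (the ubiquitin-editing enzyme A20, -0.36) and Tnip1 (a partner of A20, -0.22), with edgeR adjusted p from 5.18e-07 to 0.00485. Cyld and Otulin, deubiquitinases of the same list, had log2 fold changes of -0.097 and -0.0064 and did not pass.

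Of 19 textbook targets of NF-κB, edgeR called 15 lower and 0 higher, with a median log2 fold change of -0.37 against 0.00085 over all genes. Those with the smallest p were Cxcl2 (-0.71), Ccl5 (-0.37), Tnfaip2 (-0.37), Ccl2 (-0.59), Ccl20 (-0.57) and Ier3 (-0.29), all secreted chemokines but Tnfaip2 and Ier3. Exons of another annotated gene lie across Tnfaip2. Ptgs2, which encodes the inducible cyclooxygenase, did not pass and had overlapping groups at 49.7 to 52.7 and 50.3 to 54.1 FPKM. Of 10 genes known to need IκBζ, 9 were tested and 7 were lower, with a median of -0.83. Besides Ccl20, they were Cxcl5 (-1.06), Csf3 (-1.05), Lcn2 (-0.83), Saa3 (-1.82), Csf2 (-1.78) and Il6 (-0.73). S100a8 (-0.45) and S100a9 (1.09) were tested and did not pass, with overlapping groups and only 0 to 54 counts in a library. Il6, Csf2 and Ccl20 stand in both lists, and exons of another gene lie across Csf2. Both lists were written with earlier results on these genes known and are no independent evidence.

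**Figure D4:**
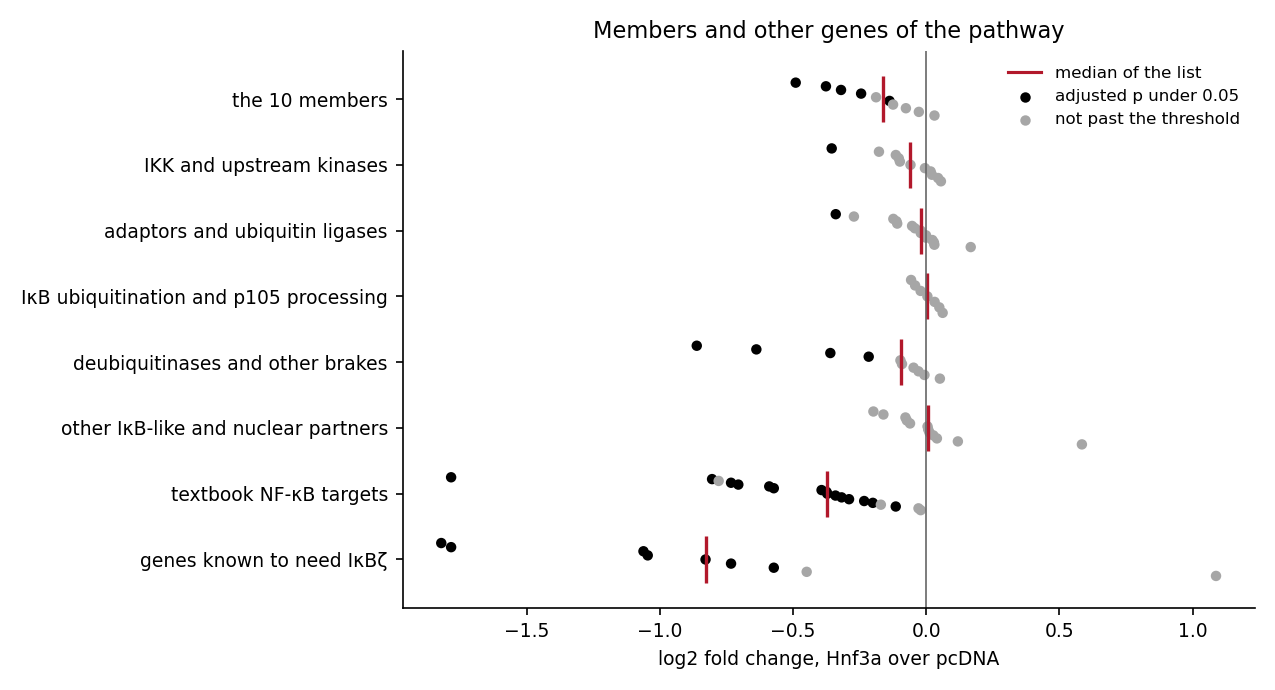
Log2 fold change (Hnf3a over pcDNA) of the tested genes in each list, with a point per gene, black where the edgeR adjusted p was under 0.05, and the median of each list as a red line. The medians of the component lists lie near 0, between -0.094 and 0.0064, while those of the targets and of the genes known to need IκBζ lie at -0.37 and -0.83.

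Calls were also made with Hnf3a replicate 1, which had the lowest sum of fibroblast genes in its group, as the lone Hnf3a library. It was assumed to vary like the pcDNA libraries. Nfkbiz, Nfkbia and Nfkb1 were called in that fit, with log2 fold changes of -0.48, -0.44 and -0.27 and edgeR adjusted p of 0.000287, 0.000652 and 0.00311. Nfkbie (-0.17, adjusted p 0.279) and Nfkb2 (-0.096, adjusted p 0.319) were not, so that 3 of the 10 members passed. In the fits without a single library, the same 3 genes passed in 6 of 6. Across all 17 alternative fits Nfkbiz lay between -0.50 and -0.46, Nfkbia between -0.44 and -0.35 and Nfkb1 between -0.34 and -0.27, past the threshold in each.

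**Figure D5:**
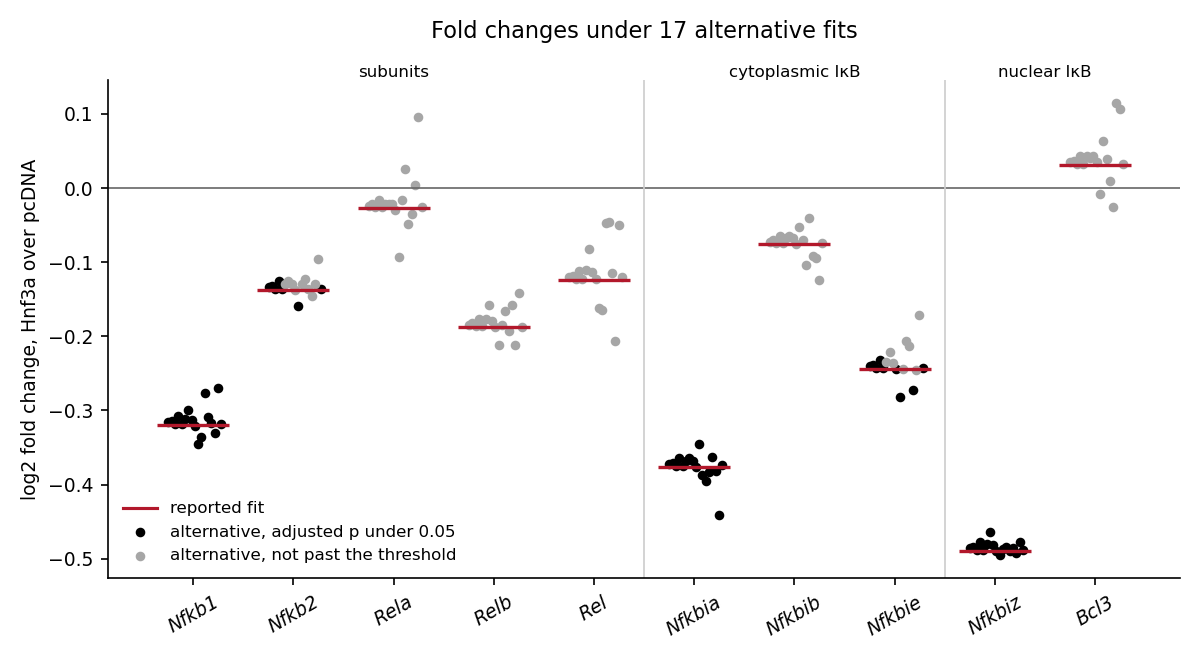
Log2 fold change of each member under 17 alternative fits (points, black where the adjusted p was under 0.05) and in the reported fit (red line). Nfkbiz, Nfkbia and Nfkb1 are black throughout, Nfkbie is black in 9 and Nfkb2 in 7 of 17, and Rela and Bcl3 have points on both sides of 0.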

How the data were processed

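RNA was sequenced from 6 libraries of TKPTS cells, grouped by their labels. The authors deposited estimated counts and FPKM values per gene, and cutadapt 1.9, HISAT2 2.0.4, UMI-tools, StringTie 1.3.4d and the build mm10 are named in the submitters' processing notes; the counting step and its use of strand are not given in the sources used here. The deposited estimated counts are whole numbers and peak at 4, so 1 fragment may be worth about 4 counts. The deposited FPKM values are scaled to transcript length and library size by the authors. Coordinates are those of the table, and 8 of the 10 members have the same ones in GENCODE vM21 (GRCm38), from which exons were counted.

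Counts were filtered with filterByExpr, scaled by TMM and tested two-sided without covariates in edgeR 4.0.16 (glmQLFit, robust = TRUE; R 4.3.3), with Benjamini-Hochberg adjustment over 17824 genes and a threshold of 0.05. Standard errors were the log2 fold change over the square root of F. The procedure was tested on simulated data in which the changes were larger than those of any member. Changes as small as those of the members were not simulated. Alternatives used limma 3.58.1, DESeq2 1.42.0, other filters and scalings, a replicate block, counts divided by 4 and fewer libraries. The genes named were Foxa1, the members, Chuk, Ikbkb, Ikbkg, Map3k14, at most 6 called genes per list by p, and the 3 genes most like the member with the smallest p. Cyld, Otulin, Ptgs2, Il6, S100a8, S100a9 and the genes that overlap members or Ikbkg were named after their values were seen. So were the marker genes Pax8, Lrp2, Cubn, Slc5a2, C1qa, Lyz2, Cd68 and Csf1r. Members, lists and rules were chosen with earlier results of these data known. Protein sequences were not used here. One marker gene is not reported here.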

Additional observations from a re-analysis of the deposited data

How the results depend on the processing

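Of the 10 members 5 were called as reported, and 3 were called (Nfkbiz, Nfkbia and Nfkb1) by limma on log2 FPKM with a pseudocount of 0.1, 1 or 0.01, and with Hnf3a replicate 1 alone. Without single libraries the number ran from 3 to 5. Over all genes, 565 were called as reported, 265, 248 and 271 in those limma fits, 322 with Hnf3a replicate 1 alone, and 263 to 643 without single libraries. Fewer libraries were fitted in the latter, and the cause of the limma difference was not tested. The DESeq2 Wald test called 5 members and 819 genes, and an adjusted p under 0.1 added Relb. The counts of the pathway lists stayed within 1.5 times the reported ones in all 18 alternatives, with 10 to 16 of the textbook targets and 6 or 7 of the genes known to need IκBζ. Foxa1 stayed between 4.84 and 5.11 on the log2 scale. The sign turned for Rela with Hnf3a replicate 1 alone (0.096). Without single libraries Rela ranged from -0.093 to 0.026 (0.0035 without pcDNA replicate 3) and Bcl3 from -0.026 to 0.12 (-0.0084 without Hnf3a replicate 1), and neither gene was called.

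Replicate numbers 1 to 3 are shared by the groups, but deviations from the group means correlated at only -0.041, -0.010 and 0.01 between same-numbered libraries, and 1 of 6 libraries correlated best with its own number. With the replicate block 4 members were called, all but Nfkb2, and 463 genes, of which 436 were shared with the reported fit. The block changed the number called in 0 of the 7 pathway lists.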
